A study of Mus musculus with 12 samples.

Results

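The 7 genes described here are the steroid arm of the stress response: the glucocorticoid receptor Nr3c1, the mineralocorticoid receptor Nr3c2, and Tsc22d3, Fkbp5, Klf9, Per1 and Zbtb16, which are known targets of the glucocorticoid receptor. They were taken by symbol, 7 of the 20792 genes listed in each library of HSPCs (hematopoietic stem and progenitor cells), and each symbol matched 1 gene. HSPCs came from the femur and tibia of wild-type male mice, 6 weeks old when the diets began, and were sorted as Lin-CD127-c-kit+Sca-1+. HSD ICH mice received a high-salt diet (HSD, 8% NaCl chow and 1% NaCl water) for 8 weeks, were returned to a normal diet (ND, 0.5% NaCl) with intracerebral hemorrhage (ICH) by autologous blood injection, and were sampled on day 7. ND ICH mice received ND throughout with the same injection. HSD and ND mice received their diets for 8 weeks without ICH. No return to ND was described for HSD mice, so HSD ICH and HSD may differ by the 7 days on ND as well as by ICH. These cannot be told apart in HSD ICH against HSD or in the difference of diet effects. Each group had 3 libraries, and for HSD and ND each was a pool of 3 animals. No number of animals per library was found for HSD ICH and ND ICH, so the p values measure the spread between libraries.

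Glucocorticoids, corticosterone in mice, cross the cell membrane and bind a receptor that waits in the cytoplasm in a complex with the chaperone HSP90 and its partners. The complex is then imported into the nucleus, where the receptor binds DNA and switches genes on or off. The mineralocorticoid receptor binds aldosterone and, in cells that do not inactivate it, corticosterone, and is best known for sodium retention in the kidney. Catecholamines from sympathetic nerves act on adrenergic receptors, which signal through cyclic AMP, and both arms are known to reach hematopoietic cells in the bone marrow.

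Total reads per library were between 12286357 and 27491973 in HSD ICH, between 12367859 and 15058511 in ND ICH, between 8678304 and 15469971 in HSD and between 13874826 and 14594254 in ND. Values are CPM, read counts scaled to the size of each library by TMM. Libraries with and without ICH differed in their low values: 2 to 29 genes lacked any read in each library with ICH, against 1393 to 1755 in each without ICH. An effect of ICH therefore cannot be told apart from whatever else differed between the 2 sets of libraries. All 12 markers of stem and progenitor cells were detected in each library, with sums from 1066 CPM (replicate 3) to 1561 CPM in HSD ICH, from 1631 to 1658 in ND ICH, from 1716 to 1879 in HSD and from 1701 to 1838 in ND. The 12 macrophage markers, also detected in every library, had the highest sums in HSD replicate 2 (812 CPM) and ND replicate 1 (458 CPM), while all others lay between 60.7 and 163 CPM. In pooled cells, fewer cells of a type and less RNA per cell cannot be told apart.

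Per kilobase of exon, which allows levels to be compared between genes, Tsc22d3 was highest with a mean of 15.2 CPM per kb over the 12 libraries (7.58 to 23.6), followed by Per1 with 13.5 (6.03 to 20.2), Nr3c1 with 9.93 (9.14 to 10.7) and Fkbp5 with 8.02 (6.04 to 9.63). Zbtb16 had 3.55 CPM per kb (2.79 to 4.27), Klf9 had 2.16 (1.76 to 2.67) and Nr3c2 had 0.389 (0.162 to 0.599). Neighbours among the leading 4 genes overlapped in range, whereas Zbtb16, Klf9 and Nr3c2 lay below them and apart from each other. HSPCs thus held far more reads of the glucocorticoid receptor gene than of the mineralocorticoid receptor gene: the lowest library had 699 reads of Nr3c1, and the highest had 62 reads of Nr3c2. The genes also differed in how much they varied, with highest-to-lowest ratios over the 12 libraries of 1.17 for Nr3c1, 1.52 for Klf9, 1.53 for Zbtb16, 1.59 for Fkbp5, 3.11 for Tsc22d3, 3.35 for Per1 and 3.69 for Nr3c2.

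The promoter windows of Per1 and Tsc22d3 are shown because these genes varied most among the well covered members and varied together. They come from RefSeq (GRCm38.p6), which matched 5 of the 7 genes, and are the bases up to 250 before each annotated start that lie outside annotated exons, written 5′ to 3′ on the strand of the gene. Capitals mark 3 motifs, searched on both strands: the core of a glucocorticoid response element (AGAACA or TGTTCT), the core of a cyclic AMP response element (TGACG or CGTCA) and the E-box of the circadian clock (CACGTG).
Per1 upstream start, chr11:69098699-69098947, + strand: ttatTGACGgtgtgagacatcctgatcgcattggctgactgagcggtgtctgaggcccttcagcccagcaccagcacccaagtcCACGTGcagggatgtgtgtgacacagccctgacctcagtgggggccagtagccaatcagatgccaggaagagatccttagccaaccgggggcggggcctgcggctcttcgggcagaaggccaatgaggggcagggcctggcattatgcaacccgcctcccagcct
Per1 downstream start, chr11:69099902-69100151, + strand: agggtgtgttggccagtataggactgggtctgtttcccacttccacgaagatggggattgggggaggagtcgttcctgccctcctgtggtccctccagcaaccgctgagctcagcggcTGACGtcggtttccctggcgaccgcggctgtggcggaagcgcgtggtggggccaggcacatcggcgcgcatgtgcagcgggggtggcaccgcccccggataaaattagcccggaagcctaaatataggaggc
Tsc22d3 distal start, chrX:140600660-140600772, - strand: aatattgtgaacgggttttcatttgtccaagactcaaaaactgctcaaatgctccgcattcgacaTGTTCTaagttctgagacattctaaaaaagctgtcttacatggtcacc
Tsc22d3 middle start, chrX:140548572-140548821, - strand: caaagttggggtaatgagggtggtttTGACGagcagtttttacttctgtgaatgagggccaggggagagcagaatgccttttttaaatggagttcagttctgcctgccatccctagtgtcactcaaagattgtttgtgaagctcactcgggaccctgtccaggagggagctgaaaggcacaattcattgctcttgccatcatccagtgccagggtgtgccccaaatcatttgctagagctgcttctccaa
Tsc22d3 proximal start, chrX:140542742-140542918, - strand: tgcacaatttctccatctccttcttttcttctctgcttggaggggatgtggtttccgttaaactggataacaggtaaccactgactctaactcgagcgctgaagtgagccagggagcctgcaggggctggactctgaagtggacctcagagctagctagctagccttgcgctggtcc
Upstream of Per1, a gene of the clock that also responds to hormones, the cyclic AMP core began 246 bases before the first start and 132 bases before the second, and the E-box began 166 bases before the first. Upstream of Tsc22d3, the glucocorticoid core began 185 bases before the distal start and the cyclic AMP core 224 bases before the middle start, and the proximal window had none of the 3 motifs. The windows of Klf9 and Fkbp5 held 1 motif each, a cyclic AMP core 46 bases and an E-box 169 bases before the start. Such short words are common: among 32851 mouse promoter windows of the full 250 bases before a start, over which the motifs of these genes were searched as well, 16.1% held the glucocorticoid core, 17.8% the cyclic AMP core and 6.02% the E-box. The full elements were in none of the windows of these genes, with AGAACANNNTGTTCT in 0.00913% and TGACGTCA in 1.55% of all windows. These are matches of letters in a short window, and binding was not measured.

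**Figure D1:**
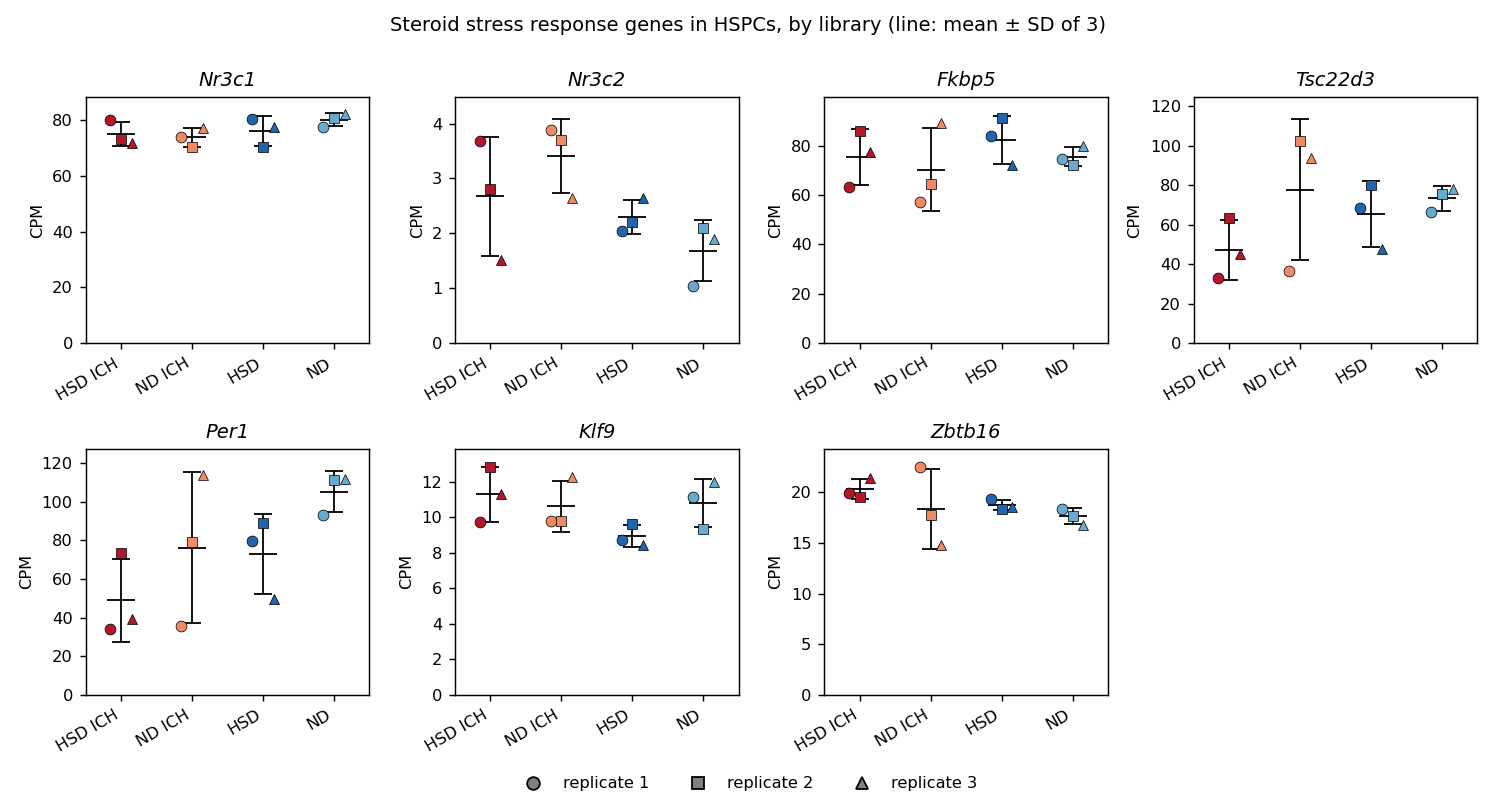
CPM of the 7 genes in each library of HSD ICH, ND ICH, HSD and ND, with replicate numbers as symbols and the mean ± SD of 3 libraries as lines. Nr3c1 lies between 70.2 and 82.4 CPM in all 12 libraries, whereas Tsc22d3 spans 32.9 to 102.5 CPM and Per1 33.9 to 113.6 CPM.

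The glucocorticoid receptor gene was the steadiest of the 7. Nr3c1 (ENSMUSG00000024431, mm10 chr18:39410545-39519421) had 80.1, 73.2 and 71.8 CPM in HSD ICH, 74.1, 70.4 and 77.1 CPM in ND ICH, 80.6, 70.2 and 77.7 CPM in HSD, and 77.5, 80.7 and 82.4 CPM in ND. Its SD within groups was 0.08 on the log2 scale, and only 10.7% of the 3473 genes within 2-fold of its level had a smaller one. HSD and ND differed by −0.08 (log2 fold change, 95% interval −0.24 to 0.09), and HSD ICH and ND ICH by 0.02 (−0.20 to 0.25). The ND ICH libraries were all below the ND libraries, by −0.12 (interval −0.29 to 0.05, adjusted p = 0.343 by limma), an arrangement found in 14.3% of all genes of that comparison. HSD ICH and HSD overlapped and differed by −0.02 (−0.24 to 0.20).

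The mineralocorticoid receptor gene was low in every library and was the only one of the 7 that passed an adjusted p of 0.05 in any comparison. Nr3c2 (ENSMUSG00000031618, chr8:76899442-77245012) had 3.69, 2.81 and 1.52 CPM in HSD ICH, 3.88, 3.70 and 2.64 CPM in ND ICH, 2.05, 2.21 and 2.64 CPM in HSD, and 1.05, 2.10 and 1.90 CPM in ND. These values rest on 15 to 62 reads, and at 15 reads counting error alone is 25.8% of the value. The gene also shares 247 exon bases with Gm10649 on the opposite strand, whose reads cannot be told apart if strand was not used. All ND ICH libraries lay above all ND libraries, as did 19.1% of all genes. Nr3c2 rose in ND ICH against ND by 0.86 (log2 fold change, SE 0.24, adjusted p = 0.0369 by limma with Benjamini-Hochberg adjustment over 19387 genes), where 16.7% of all genes passed, 13.5% being higher and 3.23% lower. These shares include genes with almost no reads in ND, which were tested only because of their ND ICH libraries. The call was lost without ND replicate 1 (0.63, adjusted p = 0.0977), without ND replicate 3 (adjusted p = 0.0568), without any 1 of the ND ICH libraries (adjusted p from 0.0956 to 0.177), with a pseudocount of 0.1 and in a fit of all 12 libraries, and it held with edgeR's quasi-likelihood test (adjusted p = 0.0363) and DESeq2 (adjusted p = 0.0258). Of the 3469 genes between 1 and 4 CPM in ND, the range of Nr3c2, 6.57% were called higher, with a median of 0.10. The libraries with ICH had reads for nearly all genes, as given above, and the part of this in the value of Nr3c2 was not tested. In the HSD arm the groups overlapped, with 0.12 for HSD ICH against HSD (interval −0.53 to 0.77). The diet comparisons gave 0.39 for HSD against ND (−0.17 to 0.94) and −0.35 for HSD ICH against ND ICH (−0.997 to 0.30), and the difference between these diet effects was −0.74 (adjusted p = 0.629).

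Across the 7 genes, the diets gave few differences. Without ICH, no member was higher and 1, Per1, was lower in HSD than in ND at an unadjusted p under 0.05, where 3.65% of all genes were higher and 3.28% lower, and none passed the adjusted p, as 0.0774% of all genes did. After ICH no member reached an unadjusted p under 0.05 between HSD ICH and ND ICH, where the shares of all genes were 5.42% higher and 10.2% lower, and 0.0% passed the adjusted p. In that comparison limma and edgeR's quasi-likelihood test called 0 genes and DESeq2 98, while 3134 genes had an unadjusted p under 0.05 by limma. For ICH, 1 member, Nr3c2, was higher and none was lower in ND ICH against ND at an unadjusted p under 0.05, against 18.1% and 10.3% of all genes. In HSD ICH against HSD none reached it, against 11.8% of all genes higher and 9.73% lower, and 6.58% of all genes passed the adjusted p. The diet effect did not differ between the states with and without ICH for any member at an unadjusted p under 0.05, and 0.0% of all genes passed the adjusted p for this difference (0 by limma, edgeR and DESeq2, with 1703 below 0.05 before adjustment). The 7 genes had median log2 fold changes of −0.08, 0.02, −0.05 and −0.02 in the comparisons HSD against ND, HSD ICH against ND ICH, ND ICH against ND and HSD ICH against HSD, beside medians of 0.02, −0.03, 0.01 and −0.01 over all genes tested.

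**Figure D2:**
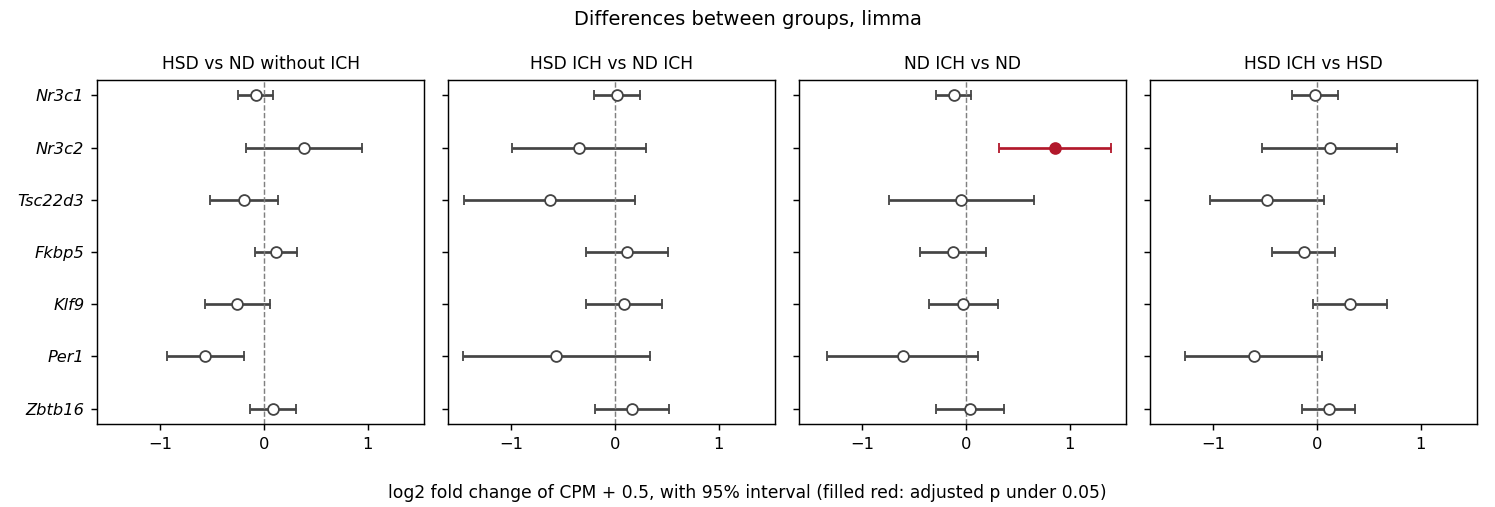
Log2 fold changes (x axis, on CPM + 0.5) of the 7 genes in 4 comparisons, with 95% intervals from limma. Of these genes, only Nr3c2 in ND ICH against ND, at 0.86, has an adjusted p under 0.05 (filled red), and the intervals of Per1 and Tsc22d3 are widest where libraries with ICH take part.

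Among the 5 target genes of the 7, only Per1 had an unadjusted p under 0.05 between the diets. It is the period gene of the circadian clock that glucocorticoids and cyclic AMP are both known to induce. Per1 (ENSMUSG00000020893, chr11:69095217-69109960) had 33.9, 73.7 and 39.2 CPM in HSD ICH, 35.8, 79.2 and 113.6 CPM in ND ICH, 79.9, 89.1 and 49.8 CPM in HSD, and 93.0, 111.2 and 111.6 CPM in ND. The 3 ND libraries were the only group with no value under 90 CPM, and all 3 HSD libraries lay below them, an arrangement found in 5.75% of all genes. Per1 averaged 72.9 ± 20.6 CPM in HSD and 105.3 ± 10.6 CPM in ND (SD, n = 3 each), a log2 fold change of −0.56 (SE 0.17, limma unadjusted p = 0.00606) that did not pass adjustment over 16787 genes (adjusted p = 0.486). Without HSD replicate 3, the lowest HSD library, the difference was −0.31 (adjusted p = 0.489). Without HSD replicate 2 and ND replicate 1, the libraries high in macrophage markers, it was −0.82 and passed (adjusted p = 0.0101). These libraries had the highest Per1 of HSD and the lowest of ND. After ICH the diet groups overlapped, with −0.57 for HSD ICH against ND ICH (interval −1.47 to 0.33, adjusted p = 0.488), and the diet effects with and without ICH differed by −0.0022 (−1.09 to 1.08). With ICH, Per1 gave −0.61 in ND ICH against ND (adjusted p = 0.258) and −0.61 in HSD ICH against HSD (adjusted p = 0.266), neither passing the test. Without ND ICH replicate 1 the difference between ND ICH and ND was −0.14, and without ND ICH replicate 3 it was −0.97.

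Tsc22d3, which encodes GILZ, an anti-inflammatory protein of the glucocorticoid response, showed the same kind of spread. The gene (ENSMUSG00000031431, chrX:140539528-140600659) had 32.9, 63.3 and 45.4 CPM in HSD ICH, 36.7, 102.5 and 94.0 CPM in ND ICH, 68.6, 80.2 and 47.4 CPM in HSD, and 66.3, 75.7 and 77.9 CPM in ND. ND was tight, and each other group held at least 1 library under 50 CPM beside higher ones. The SD within groups was 0.51 (log2) for Tsc22d3 and 0.57 for Per1, larger than that of 98.8% of 3885 and 99.4% of 3500 genes within 2-fold of their levels. Tsc22d3 differed by −0.63 between HSD ICH and ND ICH (interval −1.45 to 0.19, adjusted p = 0.406), by −0.19 between HSD and ND (adjusted p = 0.837), and by −0.48 between HSD ICH and HSD (adjusted p = 0.290). For ND ICH against ND the value was −0.05, and without ND ICH replicate 1 it was 0.42 (adjusted p = 0.0718). In the same setting HSD ICH against ND ICH became −1.10 (adjusted p = 0.440).

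Fkbp5, Klf9 and Zbtb16 differed little between groups. Fkbp5, a co-chaperone that lowers the hormone affinity of the receptor and is itself induced by it (ENSMUSG00000024222, chr17:28399094-28517527), had 63.4, 85.9 and 77.3 CPM in HSD ICH, 57.2, 64.5 and 89.2 CPM in ND ICH, 84.0, 91.1 and 71.9 CPM in HSD, and 74.6, 72.2 and 79.8 CPM in ND. All groups overlapped, and its 4 log2 fold changes lay between −0.13 and 0.12. Klf9, a Krüppel-like transcription factor (ENSMUSG00000033863, chr19:23141226-23168134), had 9.77, 12.9 and 11.3 CPM in HSD ICH, 9.79, 9.79 and 12.3 CPM in ND ICH, 8.74, 9.65 and 8.45 CPM in HSD, and 11.1, 9.34 and 11.99 CPM in ND. The HSD libraries were the low end for this gene, all below HSD ICH with a difference of 0.32 (interval −0.04 to 0.68, adjusted p = 0.288), and HSD differed from ND by −0.26 (adjusted p = 0.769). Zbtb16, which encodes the zinc finger protein PLZF (ENSMUSG00000066687, chr9:48654297-48836222), had 19.9, 19.6 and 21.5 CPM in HSD ICH, 22.5, 17.7 and 14.8 CPM in ND ICH, 19.4, 18.4 and 18.6 CPM in HSD, and 18.4, 17.7 and 16.8 CPM in ND. HSD ICH lay just above HSD, with 0.11 (interval −0.14 to 0.37). The groups of Klf9 and of Zbtb16 did not overlap in HSD ICH against HSD, 2 of 7 members, where 14.2% of all genes were higher without overlap.

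Per1 and Tsc22d3 were high and low in the same libraries. Over the 12 libraries Pearson's r of their log2 values was 0.91 (permutation p = 0.00013, adjusted p = 0.00273 over 21 pairs of members) and Spearman's rho was 0.80 (permutation p = 0.0027, adjusted p = 0.0189). It was 0.80 without the 2 libraries farthest from the median, 0.91 over the 6 libraries without ICH (exact permutation p = 0.0375, adjusted 0.723) and 0.94 over the 6 with ICH (exact permutation p = 0.0111, adjusted 0.0972). With the mean of each group taken away r was 0.94. The libraries with low values of both were HSD ICH replicates 1 and 3, ND ICH replicate 1 and HSD replicate 3. These had macrophage marker sums of 158, 97.2, 163 and 101.2 CPM, beside 60.7 to 812 CPM in the other libraries. Their stem and progenitor marker sums were 1561, 1066, 1658 and 1823 CPM, beside 1528 to 1879 CPM in the others. Their read totals were 12957023, 27491973, 13554082 and 8678304. The part of cell composition in these low values was not tested.

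Zbtb16 ran the other way. Its r was −0.81 with Per1 (permutation p = 0.00037, adjusted p = 0.00388, rho −0.90 with permutation p = 0.00012 and adjusted p = 0.00252) and −0.77 with Tsc22d3 (permutation p = 0.00218, adjusted p = 0.0153, rho −0.87 with permutation p = 0.00051 and adjusted p = 0.00535). Without the 2 farthest libraries these were −0.76 and −0.72. They were −0.60 and −0.42 over the 6 libraries without ICH (exact permutation p = 0.217 and 0.394) and −0.88 and −0.80 over the 6 with ICH (exact permutation p = 0.00972 and 0.0444, adjusted 0.0972 and 0.233). The remaining pairs did not pass adjustment over the 12 libraries, including Fkbp5 with Per1 (r = 0.61, rho = 0.59, adjusted p of r 0.186, r = 0.47 without the 2 farthest). None of the pairs of Nr3c1 with the 5 targets among the 7 genes passed either: r was 0.21 with Per1 and −0.11 with Tsc22d3 (adjusted p 0.650 and 0.769, rho 0.28 and −0.13). With the mean of each group taken away, r of Fkbp5 was 0.88 with Per1, 0.86 with Klf9 and 0.77 with Tsc22d3. It was −0.70 with Zbtb16, −0.50 with Nr3c2 and −0.16 with Nr3c1, and these values were not tested.

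**Figure D3:**
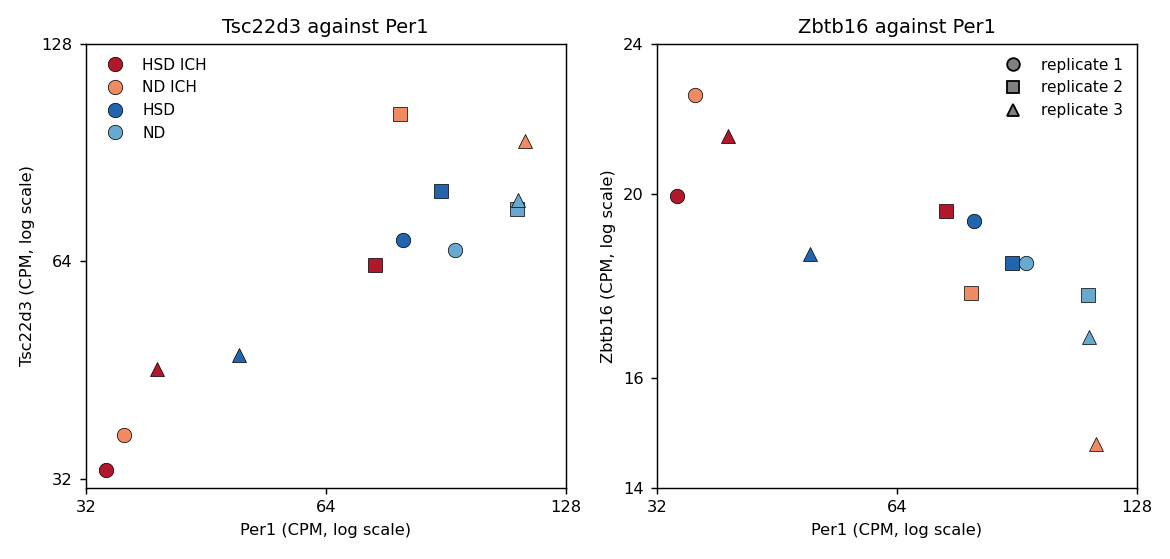
Tsc22d3 (left) and Zbtb16 (right) against Per1 in CPM on log axes, 1 point per library, colored by group, with replicate numbers as symbols. Tsc22d3 rises with Per1 (r = 0.91) and Zbtb16 falls (r = −0.81) over the 12 libraries, and ND ICH replicate 1 lies apart from the other ND ICH libraries in both panels.

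The 7 genes themselves were left out of the search for like genes, so that Per1 and Tsc22d3, with r = 0.91, do not appear in each other's ranking. Among 15104 genes compared, the gene most like Tsc22d3 over the 12 libraries was Pik3ip1 (r = 0.94), which encodes an inhibitor of PI3-kinase and is itself on the list of glucocorticoid receptor targets, followed by Usp54 (0.86) and Rsbn1l (0.85). Pik3ip1 had 40.3, 53.1 and 40.6 CPM in HSD ICH, 40.5, 66.5 and 72.2 CPM in ND ICH, 48.9, 57.9 and 41.1 CPM in HSD, and 54.4, 55.3 and 61.2 CPM in ND. Its 4 lowest libraries were those in which Per1 and Tsc22d3 were low. For Per1 the leading genes outside the 7 were Cish, an inducible inhibitor of cytokine signaling (r = 0.88), Pik3ip1 (0.88) and Erc1 (0.86), and with group means taken away Pik3ip1 (0.96), Clec1a (0.96) and Plcg2 (0.93). The likeness of the others was led by Dtnbp1 for Fkbp5 (0.87), Tmem160 for Klf9 (0.85), Spata13 for Zbtb16 (0.83), Ephb4 for Nr3c1 (0.90) and Kcnq1 for Nr3c2 (0.89). These are the highest of many correlations over 12 libraries that share a source and scaling, and are given as a description.

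The other targets of the glucocorticoid receptor differed in both directions. Of 38 further targets with enough reads, 5 had r above 0.7 with Per1 (Pik3ip1, Ddit4, Nfkbia, Cdkn1c and Tgm2) and 2 below −0.7 (Slc19a2 and Mt1), named after their values were seen, while 1.02% of 20392 genes lay above 0.7 and 0.878% below −0.7. The whole target list, which includes Tsc22d3, Fkbp5, Klf9, Per1 and Zbtb16, held 41 tested genes in HSD against ND, with 1 higher and 8 lower before adjustment at 0.05, where 3.65% and 3.28% of all genes were, and none with an adjusted p under 0.05 (median log2 fold change −0.07). The count of 8 was 4 without ND replicate 3 or HSD replicate 1, 13 without HSD replicate 2, 2 with all 12 libraries in 1 fit and 14, of which 3 passed the adjusted p, without the libraries high in macrophage markers. Rgs2, a brake on G protein signaling, had 31.7, 28.7 and 31.4 CPM in HSD, against 40.6, 40.0 and 38.7 CPM in ND, a difference of −0.37 (SE 0.09, adjusted p = 0.245). Bcl2l11, which encodes the death protein BIM, differed by −0.32 and Dusp1, a MAP kinase phosphatase, by −0.31, while Mt1, a metallothionein, was the 1 gene higher, by 0.57.

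After ICH the targets also differed in both directions. Between HSD ICH and ND ICH, 42 targets were tested, 2 being higher and 5 lower before adjustment (median −0.18). These are about the shares of all genes, 5.42% higher and 10.2% lower. Mt1 was at 1.48 and Lcn2 at 0.65, and Hif3a at −0.88, Txnip at −0.64 and Bcl2l11 at −0.36, none of which passed adjustment. Against HSD, HSD ICH had 4 targets that rose and 1 that fell of 43 with an adjusted p under 0.05, where 5.31% of all genes rose and 1.26% fell. Lcn2, a siderophore-binding protein of neutrophil granules, had 6.97, 9.02 and 9.86 CPM in HSD ICH, against 3.80, 3.01 and 2.54 CPM in HSD (1.34, adjusted p = 0.00805). Mt1 rose by 1.76 (adjusted p = 0.0333) and the transcription factor gene Cebpd by 1.27 (adjusted p = 0.0460), but HSD ICH replicate 3 stood out for both, with 42.3 CPM of Mt1 and 31.0 CPM of Cebpd against 11.8 to 13.8 and 13.0 to 13.8 CPM in the other HSD ICH libraries. With this library left out 4 targets rose and 1 fell, whereas with any other single library left out 0 or 1 rose. Txnip, a brake on glucose uptake, fell by 0.67 (adjusted p = 0.0168), with 164, 148 and 124 CPM in HSD ICH against 200, 244 and 252 CPM in HSD. In ND ICH against ND, 4 targets rose and 1 fell of 42, a share no higher than the 16.7% of all genes that passed. They included Anxa1, the annexin through which glucocorticoids restrain neutrophils (0.44, adjusted p = 0.0116), Cebpd (0.75, adjusted p = 0.0179), Hif3a (0.76, adjusted p = 0.0255) and Dusp1 (−0.51, adjusted p = 0.0394). With single libraries left out 0 to 3 rose and 0 or 1 fell. The 9 neutrophil markers analysed summed to 68.0 to 75.1 CPM in HSD ICH, 43.5 to 72.5 in ND ICH, 36.7 to 42.4 in HSD and 36.0 to 100.6 in ND. These sums include Lcn2 itself, and the part of neutrophils in its values was not tested.

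Several genes that fold and carry the receptor fell with ICH in ND mice. Of 30 genes for the receptors, chaperones, nuclear import, cofactors and steroid handling, 9 fell and 1, Nr3c2, rose in ND ICH against ND with an adjusted p under 0.05, where 13.5% of all genes rose and 3.23% fell, with 26 of 30 below 0 and a median of −0.17. The median of all genes tested was 0.01, and that of genes above 10 CPM in ND was −0.08. Stip1, the HSP70-HSP90 organizing protein, had 88.0, 95.4 and 94.4 CPM in ND ICH, against 125.3, 131.5 and 157.9 CPM in ND (−0.57, SE 0.10, adjusted p = 0.00184). Fkbp4, the FKBP52 co-chaperone that favors hormone binding and opposes Fkbp5, had 109.4, 94.1 and 119.9 CPM in ND ICH, against 149.1, 151.3 and 149.9 CPM in ND (−0.48, SE 0.09, adjusted p = 0.00468). Both genes kept their ND ICH libraries below all ND libraries, as did 14.3% of all genes. Ipo13, an importin that carries the receptor into the nucleus, fell by 0.40 (adjusted p = 0.0132). Chosen after their values were seen, the HSP70 co-chaperone Dnaja1 (−0.76), the constitutive HSP70 Hspa8 (−0.50) and the inducible HSP90 Hsp90aa1 (−0.49) also fell. The count of 9 was also 9 with edgeR and DESeq2, but between 1 (without ND ICH replicate 1) and 7 (without ND replicate 1) when any single library was left out, and 1 under the study's filter.

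In the HSD arm the list had 8 genes lower and none higher before adjustment in HSD ICH against HSD, where 9.73% and 11.8% of all genes were. None had an adjusted p under 0.05 (median −0.10). Stip1 had 102.5, 110.1 and 128.8 CPM in HSD ICH, against 167.6, 138.4 and 146.0 CPM in HSD (−0.40, adjusted p = 0.0796), and Fkbp4 differed by −0.37 (adjusted p = 0.0825). The diets alone gave 0 of 30 genes under 0.05 before adjustment in HSD against ND by limma, where 3.65% of all genes were higher and 3.28% lower. The median of the list was −0.01. Between HSD ICH and ND ICH the median was 0.11, with Stip1 at 0.29 and the drug transporter gene Abcb1a at −0.89, both under 0.05 before adjustment only. Hsd11b1, the enzyme that regenerates active glucocorticoid inside cells, had 3.35, 4.95 and 15.2 CPM in HSD ICH, 5.32, 6.45 and 4.48 CPM in ND ICH, 2.83, 4.52 and 2.43 CPM in HSD, and 2.80, 4.54 and 3.43 CPM in ND. It differed by 0.54 in ND ICH against ND (adjusted p = 0.122) and by 0.92 in HSD ICH against HSD (adjusted p = 0.290), where HSD ICH replicate 3 was the highest of all libraries.

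**Figure D4:**
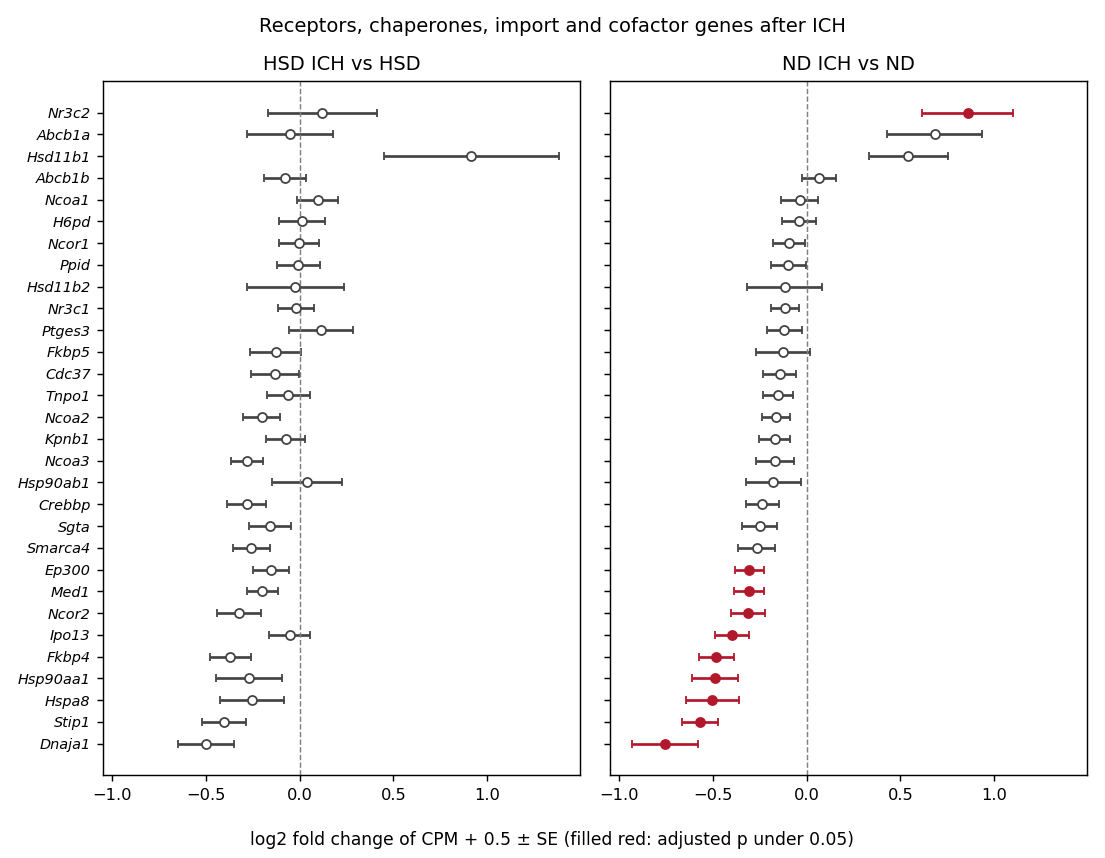
Log2 fold changes ± SE of 30 genes for the receptors, their chaperones, import and cofactors, in HSD ICH against HSD (left) and ND ICH against ND (right), ordered by ND ICH against ND. In ND ICH against ND, 9 genes led by Dnaja1 and Stip1 fell and Nr3c2 rose with an adjusted p under 0.05 (filled red), and none of the 30 passed in HSD ICH against HSD.

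Among genes of adrenergic and cyclic AMP signaling, 3 rose and 3 fell of 34 tested in ND ICH against ND with an adjusted p under 0.05. Of all genes 16.7% passed, 13.5% being higher and 3.23% lower. Without adjustment, 12 of the 34 were lower and 5 higher at 0.05, where 10.3% and 18.1% of all genes were. The count of 12 was 6 to 10 with single libraries left out. The list had 26 of 34 below 0 and a median of −0.14, beside −0.08 for genes above 10 CPM in ND. Arrb2, an arrestin that uncouples and internalizes activated receptors, had 37.5, 37.1 and 38.0 CPM in ND ICH, against 50.2, 51.9 and 54.5 CPM in ND (−0.47, adjusted p = 0.00144), and the adenylyl cyclase genes Adcy7 (−0.37) and Adcy6 (−0.48) fell with it. Pde3b, a phosphodiesterase that degrades cyclic AMP, rose by 0.46 (adjusted p = 0.00516), and Adcy4 (0.76) also rose, at 9 to 13 reads in the ND libraries. The third rise was that of Adra1a, which had 0 or 1 read in each ND library and 16 in each ND ICH library and so was tested only through ND ICH. With single libraries left out 0 to 3 rose and 1 to 4 fell. Arrb2 differed by −0.35 in HSD ICH against HSD (adjusted p = 0.114). For diet alone, no gene of the arm passed adjustment. Before adjustment 3 of 33 were lower and 1 higher in HSD against ND, where 3.28% and 3.65% of all genes were. Pde4b, a phosphodiesterase that cyclic AMP induces, had 53.8, 53.3 and 57.6 CPM in HSD, against 63.3, 69.4 and 73.6 CPM in ND (−0.32, adjusted p = 0.335), and Crem, a cyclic AMP-responsive repressor, had 4.10, 3.42 and 4.33 CPM in HSD, against 5.53, 6.97 and 6.85 CPM in ND (−0.64, adjusted p = 0.421).

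Targets of the mineralocorticoid receptor and genes of epithelial sodium transport were mostly low. Sgk1, the kinase that aldosterone induces in the kidney, had 3.48, 2.59 and 2.17 CPM in HSD ICH, 2.83, 2.63 and 2.50 CPM in ND ICH, 2.05, 3.62 and 2.01 CPM in HSD, and 3.22, 2.17 and 3.17 CPM in ND, with all groups overlapping. In HSD against ND, Per1, which belongs to this list too, was the 1 gene of 12 under 0.05 before adjustment, where 3.28% of all genes were lower. In ND ICH against ND, 2 of 14 genes tested rose with an adjusted p under 0.05, about the share of all genes that rose (13.5%). Of these, Scnn1a, a subunit of the epithelial sodium channel, rose by 0.98 (adjusted p = 0.0262), with 4.47, 3.58 and 3.74 CPM in ND ICH against 2.87, 1.25 and 1.40 CPM in ND. No gene of the list rose with an adjusted p under 0.05 when any 1 of the ND ICH libraries was left out. The other call of the list, Slc12a3, had 0 to 4 reads in each ND library and was tested only through ND ICH.

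Since Per1 is a clock gene, the rest of the clock was examined beside it. The other 21 clock genes with enough reads had a median highest-to-lowest ratio of 1.70 over the 12 libraries, and none had r above 0.7 with Per1. Per2 ranged from 21.1 to 33.5 CPM (r with Per1 0.46), Per3 from 37.9 to 51.1 CPM (0.37), Dbp, an output gene of the clock, from 7.08 to 11.998 CPM (0.40) and Nr1d1 from 6.87 to 12.6 CPM (0.10). Of 20 clock genes tested in HSD against ND, Per1 was the 1 gene under 0.05 before adjustment, where 3.28% of all genes were lower. After ICH, 4 of 22 were lower and 1 higher before adjustment in HSD ICH against ND ICH, where 10.2% and 5.42% of all genes were. The median of the 22 was −0.22, beside −0.03 over all genes tested. Genes at 1 to 4 CPM in ND ICH had a median of −0.29, and those above 10 CPM had 0.07. Nr1d2, a repressor of the clock, had 16.7, 16.7 and 13.8 CPM in HSD ICH, against 21.5, 22.2 and 23.6 CPM in ND ICH (−0.50, adjusted p = 0.242), and Rora, its activating counterpart, had 9.77, 8.94 and 5.35 CPM in HSD ICH, against 15.7, 14.3 and 12.4 CPM in ND ICH (−0.82, adjusted p = 0.251). With ICH, 1 clock gene fell in each arm, where 3.23% (ND ICH against ND) and 1.26% (HSD ICH against HSD) of all genes fell. Per2 fell in ND ICH against ND by 0.35 (adjusted p = 0.0329), where no clock gene fell in 5 of the 6 fits without a single library, and Bhlhe41, at 2 to 4 reads in the ND libraries, was tested only through ND ICH (adjusted p = 0.00328). Of 20 clock genes, 7 were lower before adjustment in HSD ICH against HSD, against 9.73% of all genes (median −0.27). Among these only Csnk1d, a kinase that marks PER proteins for degradation, passed (−0.38, adjusted p = 0.0445), and none did with any single library left out. The time of day of sampling was not given in the sources used here.

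Immediate early genes, the first genes to answer to cyclic AMP and many other signals, were mostly lower in HSD than in ND. Of 25 tested, 18 were lower before adjustment, where 3.28% of all genes were, and 4 fell with an adjusted p under 0.05, where 0.0655% of all genes fell and 0.0119% rose (median −0.49). The count of 4 was 2 to 6 with single libraries left out, 12 without the libraries high in macrophage markers and 0 with all 12 libraries in 1 fit (13 before adjustment). They included Nr4a1, an orphan nuclear receptor, with 4.88, 4.42 and 2.96 CPM in HSD, against 12.3, 15.1 and 14.8 CPM in ND (−1.69, adjusted p = 0.00526). Of 25 tested in ND ICH against ND, 15 were lower before adjustment and 12 fell with an adjusted p under 0.05, where 10.3% and 3.23% of all genes did (median −0.48), and the count of 12 was between 2 (without ND ICH replicate 3) and 12 with single libraries left out. Nr4a1 was again among them (−1.26, adjusted p = 0.000105). Before adjustment 9 of 24 were lower and 1 was higher in HSD ICH against HSD, where 9.73% and 11.8% of all genes were. In HSD ICH against ND ICH 10 of 26 were lower, where 10.2% of all genes were. None passed adjustment in these 2 comparisons. Fos had 96.0, 49.97 and 64.2 CPM in HSD ICH and 116.9, 93.6 and 93.3 CPM in ND ICH, so that replicate 1 of both groups, lowest in Per1, was highest in Fos. Over the 12 libraries, however, r of Fos with Per1 was 0.35. Of 26 such genes, 1, Csrnp1, had r above 0.7 with Per1, as 1.02% of all genes did. The values of the list ran from −0.52 for Egr2 to 0.75 for Csrnp1.

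Of the relatives of the 7 genes, the Krüppel-like factor genes are given first. In HSD against ND, 37 relatives were tested, 7 being lower and 1 higher before adjustment, where 3.28% and 3.65% of all genes were. None had an adjusted p under 0.05. Klf11 had 8.74, 10.8 and 12.8 CPM in HSD, against 17.9, 14.9 and 20.3 CPM in ND (−0.70, adjusted p = 0.245), Klf6 differed by −0.53 and Klf10 by −0.31. Klf10, the only relative with r above 0.7 with Per1 (0.83), had 26.0, 30.2 and 27.8 CPM in HSD ICH, against 37.7, 41.0 and 45.9 CPM in HSD, and fell by 0.56 (adjusted p = 0.0209), a call that was lost in 5 of the 6 fits without a single library. Fkbp11 rose in the same comparison by 1.20 (adjusted p = 0.0401) and no relative rose with any single library left out. Klf9 itself gave −0.26 in HSD against ND and 0.32 in HSD ICH against HSD. Among TSC22 genes, Tsc22d2 fell in ND ICH against ND by 0.41 (adjusted p = 0.0180), where Tsc22d3 gave −0.05. It was 1 of 4 relatives that fell there among 38 tested, where 3.23% of all genes fell. The count was 0 to 3 with single libraries left out.

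Receptor genes for the other steroid hormones were grouped with Esrra, Esrrb and Esrrg, which encode estrogen-related orphan receptors. The group was led by Esr1, the estrogen receptor α gene. It averaged 36.2 CPM in HSD and 43.4 CPM in ND, a difference of −0.26 (adjusted p = 0.563). Pgr, the progesterone receptor gene, had 0.888, 0.813 and 0.831 CPM in HSD ICH, against 2.29, 2.41 and 1.80 CPM in HSD, and fell by 0.98 (adjusted p = 0.0289), but not with any single library left out. Between HSD ICH and ND ICH, 3 of 6 were lower before adjustment, where 10.2% of all genes were, none passing it (median −0.50), with Pgr at −0.94 and Esr2 at −0.87. Esr2 averaged only 0.404 CPM in HSD ICH and 1.15 CPM in ND ICH. With any 1 of the ND ICH libraries left out, 5 were tested and 1 was lower before adjustment. In ND ICH against ND, 3 of 6 rose with an adjusted p under 0.05, where 13.5% of all genes rose. Of genes tested that were below 1 CPM in ND, 62.2% did. The 3 calls were those of Esr2, Esrrg and Esrrb, with 0 to 3 reads in each ND library. These genes were tested only through ND ICH, and with any 1 of its libraries left out they could not be tested.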

How the data were processed

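RNA of sorted HSPCs was sequenced in 12 libraries, assigned to 4 groups by the labels. Rsubread, featureCounts and edgeR 3.24.3 were used by the authors with mm10, and whether strand was used in counting was not given in the sources used here. The deposited values are CPM scaled by TMM. Dividing by the smallest step of each library gave whole reads for 100% of values (tolerance 0.01), less certainly in HSD replicate 2, where a step is about 0.1 CPM.

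Comparisons used limma 3.58.1 (R 4.3.3) with a variance trend on log2(CPM + 0.5), 6 libraries per fit and 12 for the difference of diet effects. Genes needed 10 reads in 3 libraries of the fit, and Benjamini-Hochberg adjustment ran over all of them. Fold changes on this scale understate low genes. Correlations used 100000 permutations, or all 720 orders of 6 libraries. Alternatives were pseudocounts of 0.1 and 1, no filter, the study's filter (CPM above 10 in 3 libraries), edgeR 4.0.16 and DESeq2 1.42.0 on recovered reads, 1 fit of all libraries, a replicate block, and leaving out single libraries or the pair high in macrophage markers. On recovered reads edgeR called 10, 0, 3140 and 1064 genes in HSD against ND, HSD ICH against ND ICH, ND ICH against ND and HSD ICH against HSD. The fits were tested on simulated data.

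Named genes are the 7, genes among the 3 smallest unadjusted p per direction of each list and comparison, and those most like each member. Any further list gene was picked with its values in view. The members and lists were chosen with earlier results of these data known. 1 gene of the adrenergic list and 1 of the steroid receptor list are not reported here.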

Additional observations from a re-analysis of the deposited data

How the results depend on the processing

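Of 581 recomputed values of the 7 genes, 537 kept direction and side of the threshold, 8 lost the threshold, 1 gained it and 35 changed sign. The 8 losses are those of Nr3c2 in ND ICH against ND, including a pseudocount of 0.1 (1.01, adjusted p = 0.0520), all 12 libraries in 1 fit (0.86, adjusted p = 0.0549) and without ND replicate 1 (0.63), and the gain is that of Per1 in HSD against ND without the macrophage-high libraries (−0.82). Signs changed for Tsc22d3 in ND ICH against ND with edgeR (0.084, with RLE size factors 0.10) and DESeq2 (0.10), for Nr3c1 in HSD ICH against HSD with RLE size factors (0.0082) and DESeq2 (0.0075), and for the difference of diet effects without the macrophage-high libraries in Fkbp5 (0.083) and Per1 (0.25). The cause was not tested.

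With single libraries left out, signs changed within −0.36 to 0.020 for Tsc22d3 in HSD against ND. In HSD ICH against ND ICH they did so within −0.026 to 0.053 for Nr3c1, −0.018 to 0.30 for Fkbp5 and −0.0063 to 0.19 for Klf9. In ND ICH against ND Nr3c2 kept its sign, at 0.63 to 1.01. The ranges of the genes that changed sign there were −0.31 to 0.42 for Tsc22d3, −0.31 to 0.0077 for Fkbp5, −0.13 to 0.048 for Klf9 and −0.12 to 0.18 for Zbtb16. In HSD ICH against HSD they were −0.077 to 0.021 for Nr3c1 and −0.11 to 0.42 for Nr3c2, and for the difference of diet effects −0.14 to 0.18 for Fkbp5, −0.47 to 0.36 for Per1 and −0.067 to 0.23 for Zbtb16.

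Genes past an adjusted p of 0.05 in HSD against ND numbered 13, and 8 with no filter, 66 with DESeq2, 0 with all 12 libraries in 1 fit (852 at an unadjusted p under 0.05), 91 without the macrophage-high libraries and 8 to 22 with single libraries left out. In HSD ICH against ND ICH they numbered 0, and 98 with DESeq2 and 319 with all 12 libraries in 1 fit. In ND ICH against ND they numbered 3245, and 116 with the study's filter and 264 to 2995 with single libraries left out. In HSD ICH against HSD they numbered 1189, and 2384 with no filter, 44 with the study's filter, 2047 with all 12 libraries in 1 fit, 671 without the macrophage-high libraries and 56 to 671 with single libraries left out. Leaving a library out of a group of 3 leaves fewer samples, and the filter leaves fewer genes.

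Libraries with the same replicate number had correlations of −0.191 to 0.0942 after group means were taken away, against −0.176 to 0.262 for other pairs of libraries, so the numbers were not taken as pairs. With a replicate block, 16 genes passed in HSD against ND, no call of the 7 genes changed, and Per1 in ND ICH against ND had an adjusted p of 0.0525. Nr3c2 was too low to be tested under the study's filter. Depth limits Nr3c2, at 15 to 62 reads.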
